A study of Mus musculus with 14 samples.

Results

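The response of the wild type mouse heart to 1 week of pressure overload is described here across all expressed genes. Its members were the 8 wild type libraries of 14 in the series, chosen by their labels: 6 from hearts after transverse aortic constriction (TAC), labelled replicates 1, 2, 3, 4, 6 and 7, and 2 from hearts after a sham operation, replicates 1 and 2. All came from ventricular tissue 1 week after surgery and none carried a deletion by its label. The other 6 libraries came from mice lacking the chemokine gene Ccl24 (2 sham, 4 TAC). They entered the gene filter, the scaling and the estimate of the spread between libraries. They also served the comparison with knockout hearts near the end. Strain, sex, age and the pressure gradient across the constriction were not given in the sources used here. The number of wild type libraries equals the number of mice in the design text, so each library was taken as 1 mouse. If any shared their tissue, the p-values cover only the spread between libraries, which may be technical.

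TAC narrows the aorta beyond the left ventricle, so that the ventricle has to eject blood against a raised pressure. Cardiomyocytes respond by enlarging, since adult ones seldom divide, and they retune their ion channels and fuel use, while fibroblasts, macrophages and vessel cells around them multiply and remodel the matrix. The first week after surgery is known as a time of active growth and of dividing non-muscle cells. RNA of a whole ventricle mixes all of these cells, so here fewer cells of a type and less RNA per cell cannot be told apart.

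The wild type libraries held 19902287 to 33123052 gene counts each. Sarcomere genes marked the tissue as heart muscle, with Myh6, the adult cardiac myosin, at 13240 to 23660 CPM (counts scaled to library size with TMM factors) in the 8 libraries and the atrial genes Sln and Myl7 at or below 1.14 CPM. Ccl24 gave 61 and 72 counts in the sham libraries and 56 to 105 in TAC libraries 2, 3, 4, 6 and 7, but 3 in the library labelled TAC 1 (exact 95% Poisson interval 0.6 to 8.8), where the knockout libraries held 3 to 8. That library goes against its genotype label, so the overall counts and the counts of each gene list are also given without it. Along the first principal component of the 8 libraries (71.4% of the variance) the sham libraries lay at -23.93 and -26.43, the libraries labelled TAC 1 and TAC 2 at -8.24 and -9.39, TAC 3, 4 and 6 at 9.81 to 14.56, and TAC 7 at 33.79. The TAC hearts thus were spread out rather than a tight group.

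Of 15876 genes tested with edgeR, 1930 passed an adjusted p of 0.05 (12.2%), 1009 of them higher after TAC (6.36%) and 921 lower (5.8%). A change of at least 2-fold was reached by 320 of the higher and 122 of the lower genes, so decreases were mostly small. Of the called genes, 989 of the higher and 917 of the lower had all 6 TAC libraries on one side of both sham libraries; among all genes tested 16.3% lay wholly above and 16.6% wholly below. The split between directions depended on the method, with 950 higher and 986 lower under RLE scaling and 702 higher and 972 lower with limma voom. Protein-coding genes were called higher in 7.05% and lower in 6.13% of 13754 cases, whereas long non-coding genes were called higher in 1.39% and lower in 4.45% of 1079. Of the called genes, 659 higher and 766 lower were members of none of the 76 gene lists used below.

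The calls rested on both sham libraries: 3 of the 1930 were kept without sham 1 and 0 without sham 2, and this holds for every called gene named below. Without the library labelled TAC 1 the count was 2756 (17.4% of genes tested), with 1469 higher (9.25%) and 1287 lower (8.1%), and included 1903 of the 1930, and no called gene changed sign. In all 12 fits that left out 1 other library 1170 of the 1930 calls were kept. Without TAC 3 or TAC 4 the counts were 1412 and 1256. With the 8 wild type libraries fitted alone 736 genes passed (4.74%), 341 higher (2.19%) and 395 lower (2.54%), and 68 of the 171 called genes named below did not.

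**Figure D1:**
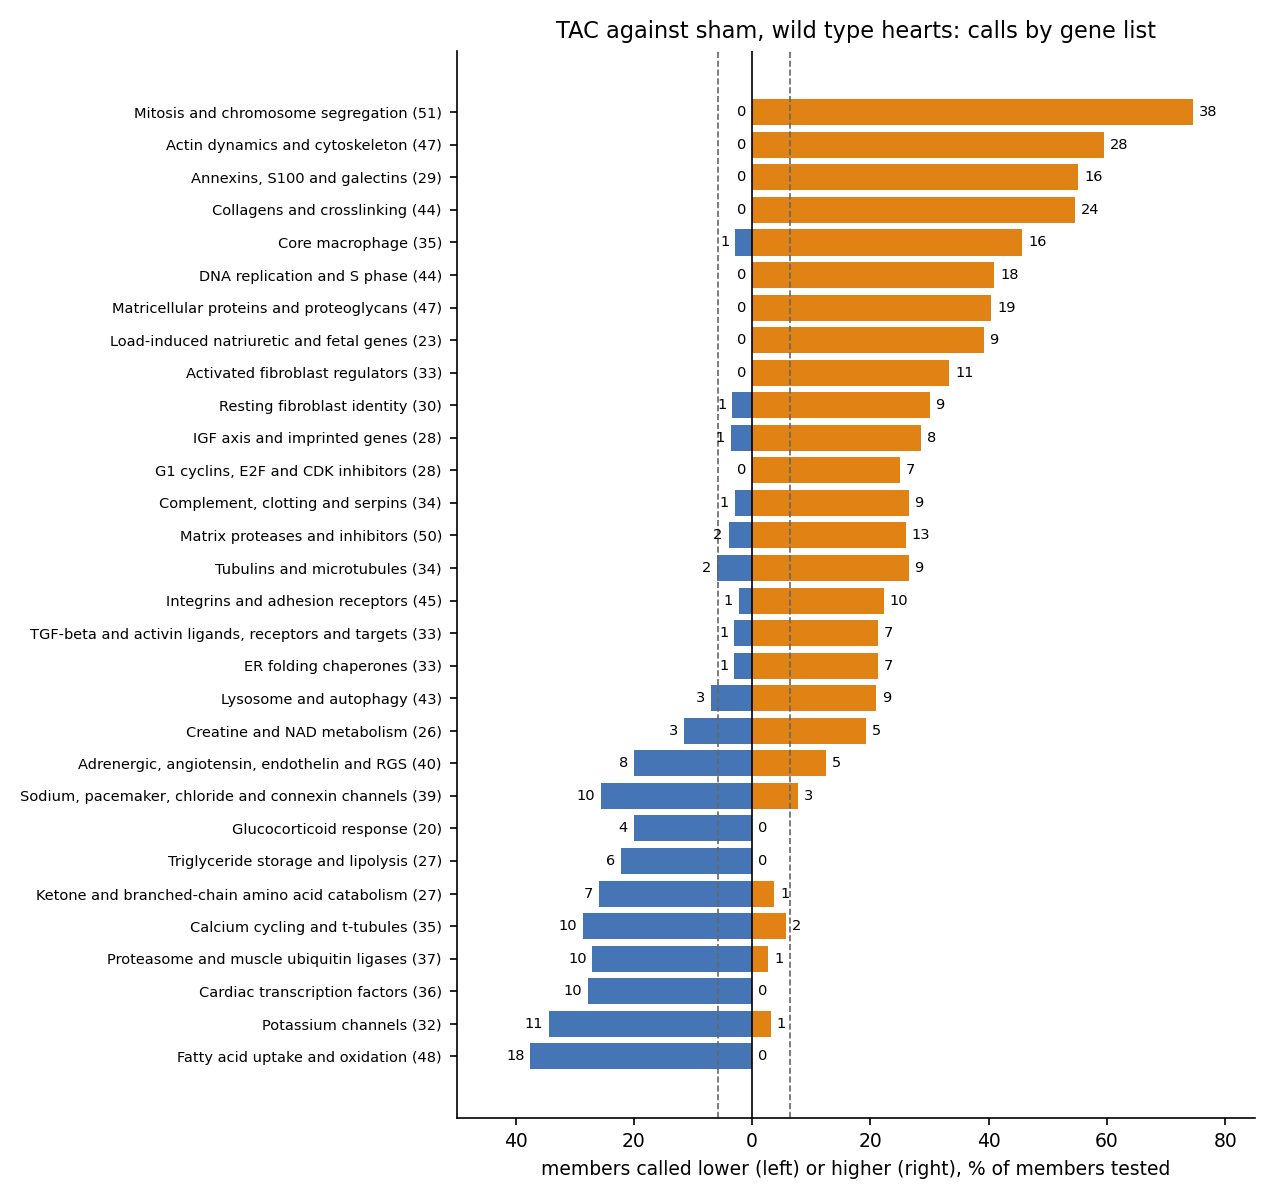
Share of members called higher (right, orange) or lower (left, blue) after TAC in wild type hearts, in percent of members tested (edgeR, adjusted p under 0.05), for the 30 gene lists with the largest share called. Numbers at the bars are counts of members, and the dashed lines mark 6.36% higher and 5.8% lower among all 15876 genes. Mitosis, actin dynamics, annexins and collagens had the largest shares higher, and fatty acid oxidation, potassium channels and calcium cycling the largest shares lower.

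Promoter sequences are shown for genes of 4 groups described below. Each run holds the 150 bases before the gene start on the gene's strand, 5′ to 3′ (RefSeq, GRCm38.p6), with motif matches on either strand in capitals. In the promoters of the mitosis genes Cdk1, Cdc20 and Top2a the capitals mark TTTGAA, the cell cycle homology region, and CCAAT, both hallmarks of genes switched on late in the cell cycle. In Mcm6 and Cdc6, which license DNA replication, they mark TTTGGCGC or TTTCCCGC, forms of the E2F site. In Hspa5 and Hsp90b1, chaperones of the endoplasmic reticulum (ER), they mark the ER stress element, CCAAT and CCACG with 9 bases between, and in the load-induced Nppb and Acta1 they mark CATTCC, the core of the TEAD site.
Cdk1, chr10:69352913-69353062, minus strand: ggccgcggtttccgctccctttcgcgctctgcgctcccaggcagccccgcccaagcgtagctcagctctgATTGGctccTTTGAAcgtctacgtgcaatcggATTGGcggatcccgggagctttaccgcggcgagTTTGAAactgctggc
Cdc20, chr4:118437344-118437493, minus strand: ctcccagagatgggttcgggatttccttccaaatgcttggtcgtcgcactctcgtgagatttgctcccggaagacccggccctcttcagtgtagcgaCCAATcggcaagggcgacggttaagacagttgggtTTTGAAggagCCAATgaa
Top2a, chr11:99024190-99024339, minus strand: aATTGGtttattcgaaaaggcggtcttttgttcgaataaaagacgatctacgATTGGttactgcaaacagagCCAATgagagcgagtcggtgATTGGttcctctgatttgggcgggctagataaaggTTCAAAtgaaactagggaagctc
Mcm6, chr1:128359706-128359855, minus strand: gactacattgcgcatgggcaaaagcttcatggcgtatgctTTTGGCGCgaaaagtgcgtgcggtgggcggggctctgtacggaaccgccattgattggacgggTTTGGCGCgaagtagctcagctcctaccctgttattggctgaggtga
Cdc6, chr11:98908001-98908150, plus strand: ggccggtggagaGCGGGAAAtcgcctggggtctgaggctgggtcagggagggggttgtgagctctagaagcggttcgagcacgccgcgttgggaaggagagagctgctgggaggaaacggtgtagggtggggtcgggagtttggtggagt
Hspa5, chr2:34771940-34772089, plus strand: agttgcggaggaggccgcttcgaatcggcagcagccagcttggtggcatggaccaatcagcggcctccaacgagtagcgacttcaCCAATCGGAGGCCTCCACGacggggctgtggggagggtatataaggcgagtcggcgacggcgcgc
Hsp90b1, chr10:86705445-86705594, minus strand: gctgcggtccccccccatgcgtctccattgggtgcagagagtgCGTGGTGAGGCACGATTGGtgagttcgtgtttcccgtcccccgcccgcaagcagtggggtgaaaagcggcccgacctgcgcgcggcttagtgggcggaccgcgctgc
Nppb, chr4:147985750-147985899, plus strand: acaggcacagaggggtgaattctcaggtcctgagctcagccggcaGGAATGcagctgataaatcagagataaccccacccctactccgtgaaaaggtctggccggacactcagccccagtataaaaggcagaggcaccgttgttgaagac
Acta1, chr8:123894776-123894925, minus strand: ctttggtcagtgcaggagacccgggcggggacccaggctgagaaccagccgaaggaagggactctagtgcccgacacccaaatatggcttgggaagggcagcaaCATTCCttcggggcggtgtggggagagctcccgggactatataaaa

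These motifs were counted in windows of 300 bases, 250 before to 50 after the start, with one promoter per gene symbol. Of the 44 mitosis genes with a promoter in the table, 33 (75%) held TTTGAA, against 18.1% of all 27025 promoters and 11.9% of those of tested genes. Within 50 bases of the start it lay in 68.2% of the mitosis promoters and 4.95% of all. Of the 33 genes with TTTGAA 27 rose, and of the 11 without it 6 rose. For CCAAT, 23 of 31 mitosis genes with it rose and 10 of 13 without it. Among replication genes, 6 of 13 with an E2F site rose and 10 of 22 without one. These differences were not tested. CCAAT was present in 70.5% of the mitosis promoters against 37.8% of all promoters. An E2F site was found in 37.1% of 35 replication promoters against 1.62% of all, and an ER stress element in 30.8% of 26 ER chaperone promoters against 0.126% of all. CATTCC lay in 37.5% of 16 load-induced promoters and in 14.6% of all. The E-box CACGTG, bound by clock factors and by regulators of lysosome genes, lay in 26.3% of 19 clock and 35.3% of 34 lysosome and autophagy promoters and in 7.09% of all. TGACGTCA, the cyclic AMP response element, lay in 2 of 24 immediate early promoters and in 1.78% of all. Among promoters of tested genes, CCAAT lay in 38%, an E2F site in 2.88% and an ER stress element in 0.159%. There CATTCC lay in 12.2%, CACGTG in 9.86% and TGACGTCA in 2.99%. Each ER stress element also holds a CCAAT. For Mcm6 and Acta1 a stretch within the 50 bases after the RefSeq start matched no GENCODE transcript of the gene, so their starts may differ between annotations. These are matches of letters, with no measure of binding.

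Most genes of mitosis rose after TAC, and so did a smaller share of those of DNA replication. Of 51 genes of mitosis and chromosome segregation 38 rose and 0 fell, with a median log2 fold change of 1.67 against 0.01 over all genes. Of 44 replication genes 18 rose and 0 fell, with a median of 0.73, and of 16 histone and chromatin genes of dividing cells 1 rose and 1 fell, with a median of 0.22. Levels of single genes are given as CPM in sham libraries 1 and 2, then as the lowest to the highest of the 6 TAC libraries with their median, and log2 fold changes as TAC minus sham ± SE. Cdk1, the kinase that drives entry into mitosis, stood at 0.981 and 1.12 CPM in the sham libraries and at 3.3 to 8.08 CPM, median 5.03, after TAC (log2 fold change 2.36 ± 0.39, adjusted p = 0.0064). All TAC libraries lay above both sham libraries, the highest being TAC 6 and the library labelled TAC 1 (8.08 and 7.57 CPM) and the lowest TAC 7. Ckap2l, which codes for a spindle protein, went from 0.768 and 0.609 CPM to 2.93 to 4.48 CPM, median 3.74 (log2 fold change 2.39 ± 0.34, adjusted p = 0.0036). Mki67, the standard marker of cycling cells, went from 4.05 and 4.97 CPM to 10.4 to 26.5 CPM, median 19 (log2 fold change 2.05 ± 0.35, adjusted p = 0.0086), with no overlap and with the library labelled TAC 1 highest. Mitosis gave 37 higher and 0 lower without the library labelled TAC 1, replication 17 and 1 and histone genes 2 and 1. For replication the count of 18 higher became 10 without wild type TAC 4, 11 without wild type TAC 6.

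The replication genes ranked the libraries in a similar way. Pclaf, a partner of the replication clamp, went from 0.256 and 0.102 CPM to 1.26 to 4.07 CPM, median 2.27 (log2 fold change 3.64 ± 0.63, adjusted p = 0.0068). In sham 2 Pclaf lay below the level of 3 counts (0.151 CPM), so the size of its change rests on few reads. Tk1, the thymidine kinase of S phase, went from 1.49 and 0.964 CPM to 1.86 to 6.91 CPM, median 5.7 (log2 fold change 2.07 ± 0.44, adjusted p = 0.015), with TAC 7 nearest to sham. Mcm6, a subunit of the replicative helicase, went from 5.12 and 4.31 CPM to 5.27 to 15.4 CPM, median 12.4 (log2 fold change 1.30 ± 0.33, adjusted p = 0.026). TAC 7 at 5.27 CPM was barely above the higher sham library. Upstream of S phase, 7 of 28 genes of G1 control rose and 0 fell. The cyclin gene Ccnd1 rose by 0.60 ± 0.14, adjusted p = 0.015, and E2f1, whose product binds E2F sites, by 1.45 ± 0.33, adjusted p = 0.016, on the log2 scale. Of the 18 replication genes that rose, TAC 7 was nearest to sham in 15 and the library labelled TAC 1 farthest in 13. Of the 38 mitosis genes, TAC 7 was nearest in 26 and the library labelled TAC 1 or TAC 6 farthest in 35. In the list of DNA damage and p53 targets, 5 of 26 genes rose and 3 fell. Brca1, which repairs DNA breaks in replicating cells, rose by 1.55 ± 0.35, adjusted p = 0.016, and the p53 target Phlda3 by 1.14 ± 0.22, adjusted p = 0.012, while Mdm2, the ligase that limits p53, fell (log2 fold change -0.26 ± 0.08, adjusted p = 0.038). G1 control gave 7 higher and 1 lower without the library labelled TAC 1, and DNA damage and p53 targets 5 and 3. For DNA damage and p53 targets the count of 5 higher became 3 without wild type TAC 6.

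Most matrix genes ranked the libraries differently. Of the 24 collagen and crosslinking genes that rose, TAC 7 was farthest from sham in 22 and TAC 2 nearest in 20. Over all 1009 higher genes TAC 7 was farthest in 61%, and TAC 2 or the library labelled TAC 1 nearest in 45.8% and 30.8%. Over the 921 lower genes TAC 7 was farthest in 64%. So the cell division genes ranked the 6 hearts differently from most of the response. Whether either order follows the load on each heart was not tested, since no pressure or heart weight is given.

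**Figure D2:**
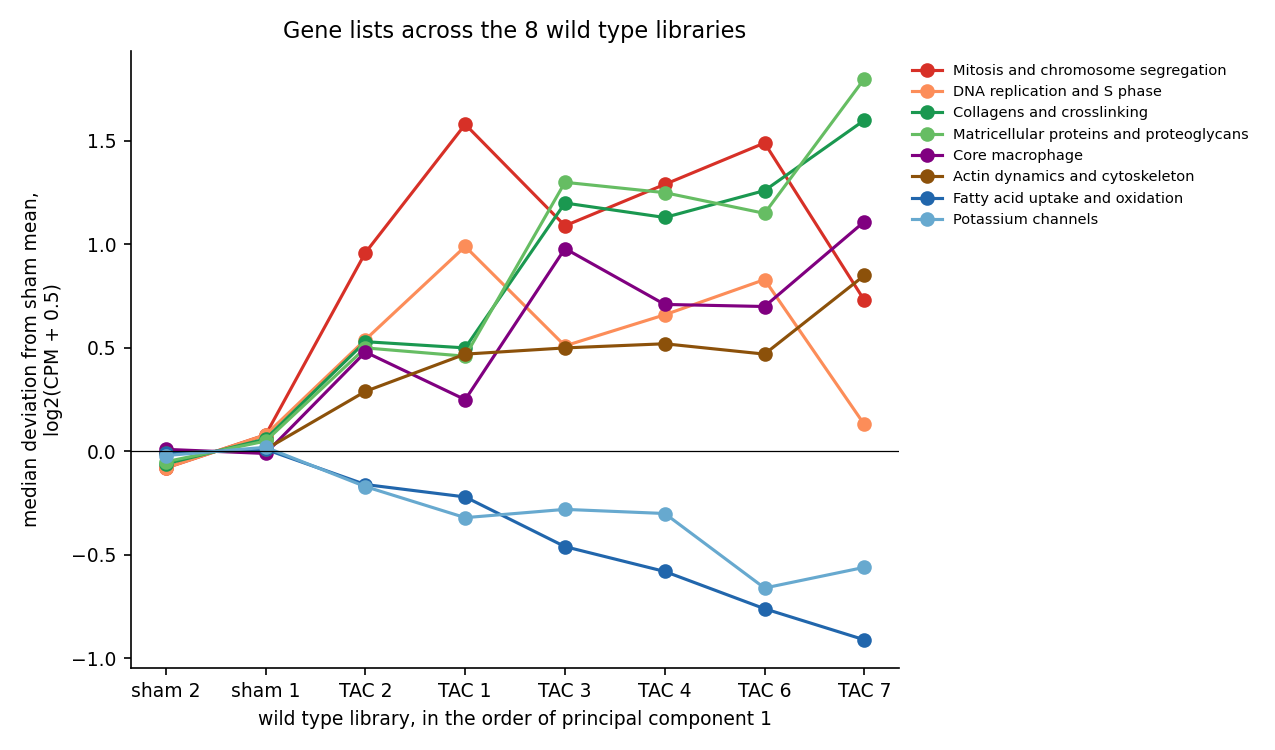
Median deviation from the sham mean, on the log2(CPM + 0.5) scale, of the members of 8 gene lists in each of the 8 wild type libraries (2 sham, 6 TAC). Each line is 1 list, and the libraries are ordered along the horizontal axis by their place on the first principal component. Matrix and fuel lists move outward toward TAC 7, whereas the mitosis and replication lists are highest in the library labelled TAC 1 and in TAC 6.

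Of 36 cardiac transcription factors 0 rose and 10 fell, with a median of -0.17. Tbx5, a T-box factor needed for chamber formation and conduction, was at 27.4 and 24.5 CPM in sham hearts and 11.3 to 14.4 CPM, median 13, after TAC (log2 fold change -1.02 ± 0.12, adjusted p = 0.00097). The 6 TAC libraries lay close together and all below sham, the library labelled TAC 1 at 12.6 CPM and TAC 7 at 11.3 CPM. Myocd, the coactivator of serum response factor in muscle, went from 30.1 and 28.4 CPM to 14.3 to 18.9 CPM, median 16.4 (log2 fold change -0.81 ± 0.14, adjusted p = 0.0064). Prox1, a homeobox factor of heart muscle and lymphatic vessels, went from 58 and 53.7 CPM to 25.7 to 38.3 CPM, median 35.5 (log2 fold change -0.74 ± 0.13, adjusted p = 0.0068). For both genes every TAC library lay below sham. Smaller decreases were called for Mef2a (-0.38 ± 0.09, adjusted p = 0.015), Mef2d (-0.43 ± 0.10, adjusted p = 0.015), Tead1 (-0.41 ± 0.10, adjusted p = 0.018) and the metabolic regulator Klf15 (-0.52 ± 0.13, adjusted p = 0.023). Gata4 did not pass (log2 fold change -0.28 ± 0.14, adjusted p = 0.19), although its TAC values (87.9 to 127 CPM, median 121) lay below the sham values of 141 and 132 CPM. Cardiac transcription factors gave 2 higher and 10 lower without the library labelled TAC 1.

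Hipk2, a nuclear kinase gene in none of the lists, fell from 36.5 and 40.4 CPM to 12 to 15.7 CPM, median 14.1 (log2 fold change -1.45 ± 0.19, adjusted p = 0.0024). The gap between the groups was larger than the spread within either. Genes of RNA processing, many coding for muscle proteins that choose between splice forms, gave 5 lower and 0 higher of 36. Rbm20, which controls the splicing of titin, went from 211 and 206 CPM to 88.8 to 149 CPM, median 124 (log2 fold change -0.75 ± 0.14, adjusted p = 0.0083), lowest in TAC 7. Rbm38, which binds AU-rich RNA, fell by less (log2 fold change -0.61 ± 0.10, adjusted p = 0.0068), as did the muscle splicing gene Rbm24 (log2 fold change -0.42 ± 0.11, adjusted p = 0.023). The splicing regulators Rbfox1 (log2 fold change -1.04 ± 0.29, adjusted p = 0.038) and Celf1 (log2 fold change -0.33 ± 0.10, adjusted p = 0.046) were the other called members. RNA processing gave 2 higher and 5 lower without the library labelled TAC 1. For RNA processing the count of 5 lower became 3 without wild type TAC 3 or wild type TAC 4. Of the 12 fits with 1 other library left out, the call was lost for Rbfox1 in 3 (highest adjusted p = 0.0606, without wild type TAC 4) and Celf1 in 4 (highest adjusted p = 0.0637, without wild type TAC 4).

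**Figure D3:**
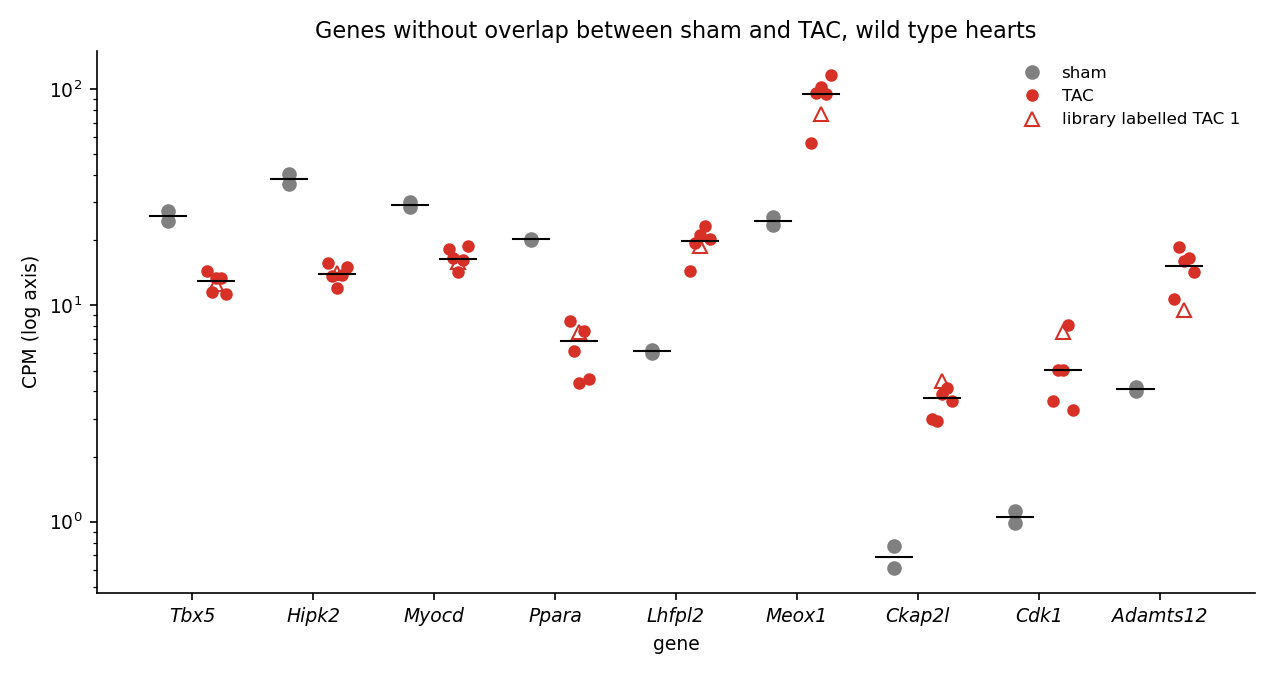
Levels of 9 genes in each wild type library in CPM (log axis), sham (grey, n = 2) and TAC (red, n = 6); bars mark group medians and the open triangle the library labelled TAC 1. Tbx5, Hipk2, Myocd and Ppara fell and Lhfpl2, Meox1, Ckap2l, Cdk1 and Adamts12 rose with no overlap between the groups.

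Potassium channels repolarise the cardiomyocyte. Of 32 of their genes 11 fell and 1 rose, with a median of -0.33. Kcnj2, an inward rectifier that holds the resting potential, went from 55.1 and 59 CPM to 16.5 to 31.8 CPM, median 24.6 (log2 fold change -1.19 ± 0.17, adjusted p = 0.0046). Its relative Kcnj12 went from 25.4 and 25.5 CPM to 11.9 to 14.8 CPM, median 13.4 (log2 fold change -0.92 ± 0.18, adjusted p = 0.011). No TAC library reached the sham range for either gene, and Kcnj12 varied little among the TAC hearts. Kcnj3, whose product forms the acetylcholine-gated channel with that of Kcnj5, was at 51.3 and 43.9 CPM in sham and ranged from 28.4 CPM in the library labelled TAC 1 to 7.97 CPM in TAC 7 (log2 fold change -1.39 ± 0.32, adjusted p = 0.022). Kcnj5 fell by less (log2 fold change -0.86 ± 0.16, adjusted p = 0.0086), and so did the ATP-sensitive channel gene Kcnj11 (log2 fold change -0.55 ± 0.13, adjusted p = 0.017). Further decreases were called for the transient outward channel gene Kcnd3 (-0.93 ± 0.24, adjusted p = 0.023), the silent subunit gene Kcnv2 (-1.55 ± 0.34, adjusted p = 0.015) and Kcnh2 of the rapid delayed rectifier (-0.64 ± 0.15, adjusted p = 0.016). Potassium channels gave 2 higher and 12 lower without the library labelled TAC 1.

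Among sodium, pacemaker, chloride and connexin channels 10 of 39 fell and 3 rose. The pacemaker gene Hcn4 went from 14.8 and 12.4 CPM to 4.23 to 9 CPM, median 5.86 (log2 fold change -1.21 ± 0.22, adjusted p = 0.0077). The sodium channel subunit gene Scn4b went from 252 and 253 CPM to 47.3 to 141 CPM, median 117 (log2 fold change -1.23 ± 0.27, adjusted p = 0.017), with TAC 7 lowest. Genes of the intercalated disc, which joins cardiomyocytes end to end, gave 4 lower and 2 higher of 29. The desmosomal cadherin genes Dsc2 (-0.71 ± 0.13, adjusted p = 0.0086) and Dsg2 (-0.61 ± 0.16, adjusted p = 0.025) fell, and so did the channel anchor gene Ank2 (-0.52 ± 0.14, adjusted p = 0.03). The desmosomal plaque gene Pkp2 (0.50 ± 0.14, adjusted p = 0.036) and the integrin-linked adaptor gene Parva (0.45 ± 0.10, adjusted p = 0.015) rose. Of 45 sarcomere and Z-disc genes 4 rose and 1 fell, against 6.36% and 5.8% of all genes. Those that rose were the ankyrin repeat genes Ankrd1 (0.57 ± 0.18, adjusted p = 0.047) and Ankrd2 (2.56 ± 0.70, adjusted p = 0.035), the Z-disc gene Synpo2l (1.25 ± 0.33, adjusted p = 0.031) and the skeletal actin gene Acta1, and the one that fell was the coactivator gene Myocd. Sodium and related channels gave 4 higher and 12 lower without the library labelled TAC 1, the intercalated disc 3 and 4 and the sarcomere 5 and 2. The call was lost, in the 12 fits with 1 other library left out, for Pkp2 in 3 (highest adjusted p = 0.0646, without wild type TAC 4), Ankrd1 in 8 (highest adjusted p = 0.082, without wild type TAC 4), Ankrd2 in 2 (highest adjusted p = 0.0529, without wild type TAC 4) and Synpo2l in 1 (highest adjusted p = 0.0517, without wild type TAC 4).

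Of 35 genes of calcium cycling and t-tubules 10 fell and 2 rose. The L-type channel gene Cacna1c went from 271 and 270 CPM to 181 to 215 CPM, median 192 (log2 fold change -0.47 ± 0.10, adjusted p = 0.014), with all TAC libraries below sham. Atp2a2, which pumps calcium back into the sarcoplasmic reticulum, went from 10040 and 9748 CPM to 3502 to 7075 CPM, median 5256 (log2 fold change -0.88 ± 0.20, adjusted p = 0.015), and its inhibitor Pln from 4880 and 4828 CPM to 2864 to 3927 CPM, median 3402 (log2 fold change -0.51 ± 0.13, adjusted p = 0.023). Both were highest in the library labelled TAC 1 among the TAC hearts and lowest in TAC 7. Bin1, which shapes t-tubule membranes, rose (log2 fold change 0.55 ± 0.14, adjusted p = 0.022). Calcium cycling gave 2 higher and 11 lower without the library labelled TAC 1. For calcium cycling the count of 10 lower became 6 without wild type TAC 3, 4 without wild type TAC 4.

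In the list of adrenergic, angiotensin and endothelin signalling 8 of 40 genes fell and 5 rose, and the decreases covered several steps of the cyclic AMP pathway. Adrb1, the main cardiac beta-adrenergic receptor, fell (log2 fold change -0.48 ± 0.13, adjusted p = 0.026), as did Adcy6, a cyclase that makes cyclic AMP in heart muscle (log2 fold change -0.69 ± 0.13, adjusted p = 0.0091). Pde4d, whose product degrades cyclic AMP, fell from 14.2 and 14.4 CPM to 5 to 7.57 CPM, median 6.3 (log2 fold change -1.19 ± 0.17, adjusted p = 0.0042). Pde7a, another such phosphodiesterase gene, fell too (log2 fold change -0.82 ± 0.15, adjusted p = 0.0077). Adcy9, a cyclase gene in none of the lists, fell from 16.5 and 16.7 CPM to 4.11 to 8.63 CPM, median 7.19 (log2 fold change -1.24 ± 0.29, adjusted p = 0.018). Adcy7, a cyclase gene abundant in blood cells, rose from 26.9 and 28 CPM to 40.6 to 71.8 CPM, median 55.2 (log2 fold change 1.02 ± 0.23, adjusted p = 0.017). Adrenergic and related signalling gave 7 higher and 9 lower without the library labelled TAC 1. For adrenergic and related signalling the count of 5 higher became 3 without knockout sham 1, knockout sham 2, knockout TAC 5, wild type TAC 6 or wild type TAC 7.

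Of 48 genes of fatty acid uptake and oxidation 18 fell and 0 rose, with a median of -0.51. Ppara, the nuclear receptor of fat oxidation, went from 20.1 and 20.3 CPM to 4.39 to 8.45 CPM, median 6.84 (log2 fold change -1.65 ± 0.24, adjusted p = 0.0046), with no overlap. Its coactivator genes Ppargc1a (-0.93 ± 0.14, adjusted p = 0.0052) and Ppargc1b (-0.86 ± 0.19, adjusted p = 0.015) fell. The related receptor genes Esrrg (-0.73 ± 0.15, adjusted p = 0.011), Esrrb (-0.61 ± 0.15, adjusted p = 0.02) and Esrra (-0.30 ± 0.08, adjusted p = 0.029) fell as well, Esrra by the least. Acacb, whose product makes malonyl-CoA at the mitochondrion, fell from 304 and 313 CPM to 134 to 227 CPM, median 188 (log2 fold change -0.75 ± 0.14, adjusted p = 0.0094). Lpl, the lipase that frees fatty acids from lipoproteins, fell from 4193 and 4033 CPM to 2355 to 3171 CPM, median 2840 (log2 fold change -0.56 ± 0.13, adjusted p = 0.015). Hadha, of the oxidation spiral itself, was graded, at 1312 and 1285 CPM in sham, 1046 CPM in the library labelled TAC 1 and 570 CPM in TAC 7 (log2 fold change -0.62 ± 0.20, adjusted p = 0.049). Fatty acid oxidation gave 0 higher and 28 lower without the library labelled TAC 1. For fatty acid oxidation the count of 18 lower became 28 without wild type TAC 2. Of the 12 fits with 1 other library left out, the call was lost for Hadha in 7 (highest adjusted p = 0.0704, without wild type TAC 4).

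In the list of ketone use and breakdown of branched-chain amino acids 7 of 27 genes fell and 1 rose. Dbt, a core subunit of the branched-chain keto acid dehydrogenase, went from 50.5 and 54.6 CPM to 17.3 to 34.1 CPM, median 24.3 (log2 fold change -1.02 ± 0.20, adjusted p = 0.012). Ppm1k, the phosphatase that activates this complex, went from 71.4 and 57.8 CPM to 26.4 to 49.6 CPM, median 31 (log2 fold change -0.91 ± 0.20, adjusted p = 0.016). Ivd, of leucine breakdown, went from 372 and 353 CPM to 164 to 275 CPM, median 211 (log2 fold change -0.75 ± 0.18, adjusted p = 0.018). All TAC libraries lay below sham for these 3 genes. The gene that rose was Bcat1, the cytosolic aminotransferase of these amino acids, from 2.86 and 2.89 CPM to 4.38 to 9.56 CPM, median 7.28 (log2 fold change 1.27 ± 0.29, adjusted p = 0.015). Of 35 genes of the TCA cycle and pyruvate use 5 fell and 0 rose. They included genes that govern pyruvate dehydrogenase. Pdp2, a phosphatase that activates it, fell (log2 fold change -1.06 ± 0.23, adjusted p = 0.015), and Pdpr, a regulatory subunit of pyruvate dehydrogenase phosphatase, went from 43 and 42.2 CPM to 12.6 to 23.2 CPM, median 18.5 (log2 fold change -1.21 ± 0.25, adjusted p = 0.015). Pdk2, an opposing kinase that inactivates the enzyme, fell as well (log2 fold change -0.44 ± 0.13, adjusted p = 0.042). Ketone and branched-chain amino acid genes gave 1 higher and 15 lower without the library labelled TAC 1, and the TCA cycle 0 and 13. For ketone and branched-chain amino acid genes the count of 7 lower became 14 without wild type TAC 2. For the TCA cycle the count of 5 lower became 3 without knockout sham 1, knockout sham 2, knockout TAC 4 or knockout TAC 5, 8 without knockout TAC 1, 11 without wild type TAC 2, 2 without wild type TAC 4. The call was lost, in the 12 fits with 1 other library left out, for Pdk2 in 5 (highest adjusted p = 0.0542, without knockout sham 2).

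Nuclear genes of the respiratory chain held few calls. Of 45 genes of complex I 1 fell and 0 rose, with a median of 0.00. Of 38 nuclear genes of complexes III to V 0 fell and 1 rose, with a median of 0.00. These shares lie below the 6.36% and 5.8% over all genes. The mitochondrially encoded genes, of which 2 of 15 fell and 0 rose, had a median of -0.49. The called genes were mt-Nd2 (-0.59 ± 0.17, adjusted p = 0.04) and mt-Nd5 (-0.78 ± 0.21, adjusted p = 0.03), both subunits of complex I. All mitochondrially encoded genes together took 18.81% and 18.46% of all counts in sham and 10.13% to 17.05% after TAC (mean 13.9%), a difference of -4.75 percentage points with no overlap. The exact two-sided permutation p was 0.0714, the smallest that 28 groupings of 2 and 6 libraries allow. Of 37 glycolysis and glucose genes 0 rose and 4 fell, among them the hexokinase gene Hk2 (-0.50 ± 0.11, adjusted p = 0.015) and Slc2a4, the insulin-dependent glucose transporter (-0.50 ± 0.14, adjusted p = 0.035). Around NAD, Nmrk2, a nicotinamide riboside kinase of stressed muscle, rose from 38.6 and 25.3 CPM to 70.5 to 244 CPM, median 158 (log2 fold change 2.30 ± 0.59, adjusted p = 0.033). Nampt, which starts the salvage route from nicotinamide, fell (log2 fold change -0.54 ± 0.12, adjusted p = 0.015), and so did Nadk2, the mitochondrial NAD kinase (log2 fold change -0.69 ± 0.13, adjusted p = 0.01). Complex I gave 0 higher and 2 lower without the library labelled TAC 1, complexes III to V 1 and 0, mitochondrially encoded genes 0 and 4 and glycolysis 1 and 7. The medians without it were -0.08 for complex I and -0.06 for complexes III to V. By library, the median deviation from sham of complex I ran from -0.26 in TAC 6 to 0.32 in the library labelled TAC 1. For complexes III to V it ran from -0.23 to 0.30 in the same libraries. Of the 12 fits with 1 other library left out, the call was lost for mt-Nd2 in 3 (highest adjusted p = 0.0617, without wild type TAC 3) and mt-Nd5 in 1 (highest adjusted p = 0.0508, without wild type TAC 4).

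**Figure D4:**
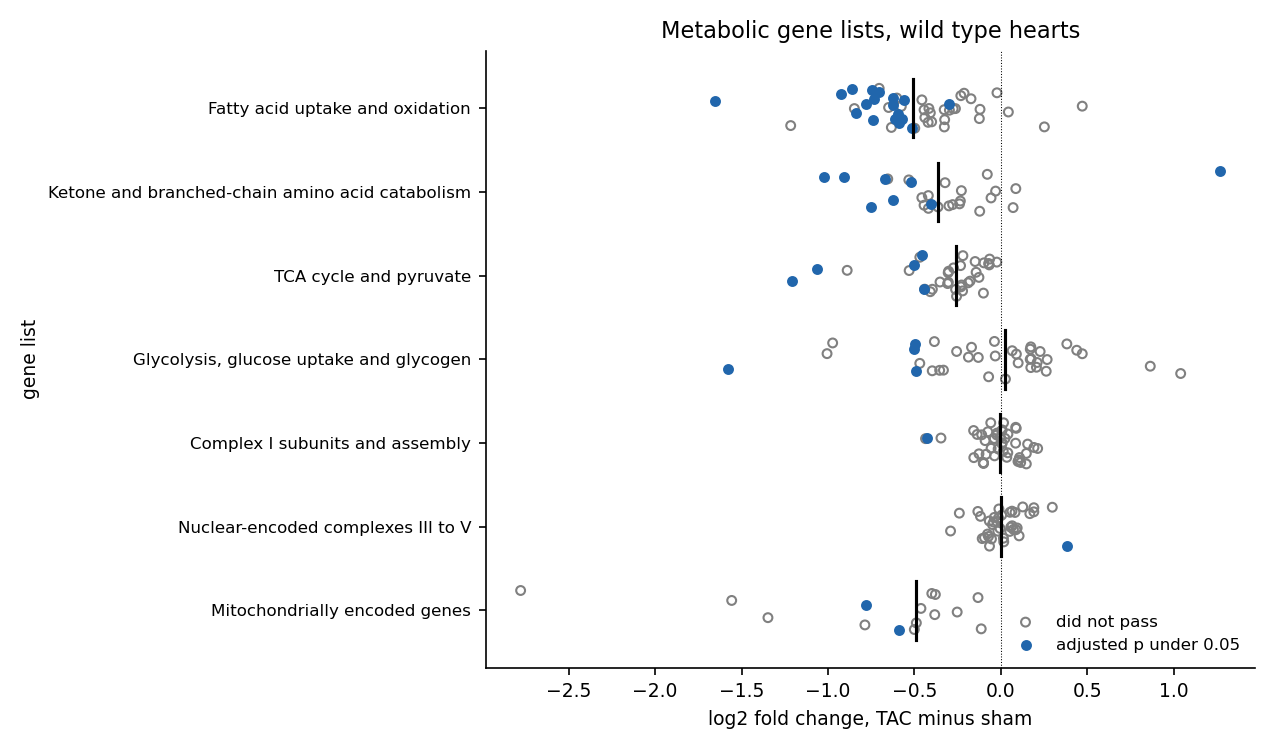
Log2 fold change (TAC minus sham, wild type) of every member tested of 7 metabolic gene lists; filled points passed an adjusted p of 0.05 in edgeR, open points did not, and the bar is the list median. Fatty acid oxidation (18 of 48 lower) and branched-chain amino acid genes lie mostly below 0. With all libraries fitted, the nuclear genes of complex I and of complexes III to V are centred at 0.

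In a list of the proteasome and of muscle ubiquitin ligases 10 of 37 genes fell and 1 rose. Asb15, an adaptor of muscle ubiquitin ligase complexes, went from 52.3 and 46 CPM to 13.2 to 26.7 CPM, median 21.3 (log2 fold change -1.20 ± 0.19, adjusted p = 0.0054), with no overlap. Its relatives Asb2 (-0.67 ± 0.15, adjusted p = 0.015) and Asb10 (-0.69 ± 0.17, adjusted p = 0.022) fell too. The atrophy ligase gene Fbxo32 (-0.49 ± 0.11, adjusted p = 0.015) and the titin-binding Trim55 (-0.49 ± 0.11, adjusted p = 0.017) fell, whereas the atrophy ligase gene Trim63 did not pass (-0.20 ± 0.11, adjusted p = 0.25). In the lysosome and autophagy list 9 of 43 genes rose and 3 fell. Those that fell were Mitf, a regulator of lysosome genes (-0.77 ± 0.13, adjusted p = 0.0064), the autophagy kinase gene Ulk1 (-0.49 ± 0.09, adjusted p = 0.0077) and the cholesterol transporter gene Npc1 (-0.74 ± 0.15, adjusted p = 0.012). Those that rose included the cathepsin genes Ctss (1.15 ± 0.27, adjusted p = 0.019) and Ctsz (0.78 ± 0.18, adjusted p = 0.017) and the protease gene Lgmn (0.62 ± 0.16, adjusted p = 0.023), all abundant in macrophages. The core macrophage list summed to 1094 and 1124 CPM in sham and 1257 to 2457 CPM after TAC, and its part in the lysosome result was not tested. The proteasome and ligase list gave 1 higher and 10 lower without the library labelled TAC 1, and lysosome and autophagy 15 and 3. For lysosome and autophagy the count of 9 higher became 5 without wild type TAC 3 or wild type TAC 4.

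Most genes of actin dynamics rose. Of 47 genes of actin dynamics 28 rose and 0 fell, and 41 had all TAC libraries above sham, where 16.3% of all genes did. Tagln2, an actin-binding protein gene, went from 98.2 and 106 CPM to 156 to 227 CPM, median 199 (log2 fold change 0.93 ± 0.14, adjusted p = 0.0052). The actin-severing cofilin gene Cfl1 went from 163 and 163 CPM to 218 to 297 CPM, median 260 (log2 fold change 0.65 ± 0.11, adjusted p = 0.0068). These changes were moderate, and Tagln2 was about as high in the library labelled TAC 1 (214 CPM) as in TAC 7 (227 CPM). Of the 28 actin genes that rose, TAC 2 was nearest to sham in 21. The intermediate filament gene Vim went from 390 and 386 CPM to 610 to 1026 CPM, median 755 (log2 fold change 1.00 ± 0.18, adjusted p = 0.0076). Actin dynamics gave 33 higher and 0 lower without the library labelled TAC 1.

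Annexins, S100 proteins and galectins, which bind calcium, membranes or sugars, gave 16 higher and 0 lower of 29. Anxa2, a membrane-binding annexin, went from 122 and 129 CPM to 182 to 352 CPM, median 239 (log2 fold change 0.98 ± 0.21, adjusted p = 0.015). The tetraspanin gene Cd9, in the same list, went from 27.9 and 25.9 CPM to 40 to 58.6 CPM, median 47.4 (log2 fold change 0.83 ± 0.12, adjusted p = 0.0036). Neither gene overlapped between the groups. Among 34 tubulin and microtubule genes 9 rose and 2 fell. Tuba1a (0.78 ± 0.17, adjusted p = 0.015), Tubb5 (0.59 ± 0.12, adjusted p = 0.011) and Tubb6 (0.86 ± 0.21, adjusted p = 0.021) rose. Tubb3, the isotype of neurons, rose from 0.469 and 0.102 CPM to 1.29 to 5.27 CPM, median 2.83 (log2 fold change 3.30 ± 0.79, adjusted p = 0.021), at a low level in every library. In sham 2 Tubb3 lay below the level of 3 counts (0.151 CPM). Annexins, S100 and galectins gave 19 higher and 1 lower without the library labelled TAC 1, and tubulins and microtubules 8 and 5.

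Beyond the fibrillar collagens, the matrix response took in basement membrane and less familiar chains. Of 44 collagen and crosslinking genes 24 rose and 0 fell. Col15a1, a basement membrane collagen with an endostatin-like end, went from 206 and 201 CPM to 381 to 762 CPM, median 677 (log2 fold change 1.57 ± 0.26, adjusted p = 0.0066). Its relative Col18a1 went from 26.2 and 23.7 CPM to 40.3 to 51.7 CPM, median 47.3 (log2 fold change 0.90 ± 0.13, adjusted p = 0.0042). Col18a1 was even across the TAC hearts, at 47.4 CPM in the library labelled TAC 1 and 51.7 CPM in TAC 7, whereas Col15a1 was lower in the library labelled TAC 1 and in TAC 2 than in the other 4. The basement membrane genes Col4a1 (1.15 ± 0.25, adjusted p = 0.015), Nid1 (0.55 ± 0.13, adjusted p = 0.016), Nid2 (0.53 ± 0.13, adjusted p = 0.022), Lamb1 (0.47 ± 0.10, adjusted p = 0.015) and Hspg2 (0.51 ± 0.10, adjusted p = 0.012) rose as well. Col26a1, a collagen in none of the lists, went from 0.554 and 0.355 CPM to 1.86 to 5.46 CPM, median 3.56 (log2 fold change 2.92 ± 0.49, adjusted p = 0.0064). Of 47 matricellular and proteoglycan genes 19 rose and 0 fell. Eln, the elastin gene, went from 45.2 and 37.8 CPM to 82.5 to 292 CPM, median 127 (log2 fold change 1.85 ± 0.46, adjusted p = 0.028), and Mfap2, of the microfibrils that carry elastin, from 4.52 and 2.69 CPM to 6.25 to 20.3 CPM, median 12.6 (log2 fold change 1.73 ± 0.42, adjusted p = 0.023). Collagens gave 31 higher and 0 lower without the library labelled TAC 1, and matricellular and proteoglycan genes 27 and 0. For matricellular and proteoglycan genes the count of 19 higher became 11 without knockout sham 1 or knockout sham 2, 10 without knockout TAC 2, wild type TAC 3, wild type TAC 4 or wild type TAC 6, 12 without knockout TAC 5.

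Among matrix proteases and their inhibitors 13 of 50 rose and 2 fell. Adamts12, a secreted protease, went from 4.18 and 4.01 CPM to 9.57 to 18.6 CPM, median 15.2 (log2 fold change 1.80 ± 0.24, adjusted p = 0.0024). Its relative Adamts8 rose (log2 fold change 2.00 ± 0.41, adjusted p = 0.013), and so did Adam12, a membrane protease of fibroblasts (log2 fold change 1.83 ± 0.32, adjusted p = 0.0072), whereas Adamts7 fell (log2 fold change -0.67 ± 0.19, adjusted p = 0.032). Regulators of activated fibroblasts gave 11 higher and 0 lower of 33. Meox1, a homeobox gene of activated fibroblasts, went from 25.6 and 23.6 CPM to 56.7 to 116 CPM, median 95.6 (log2 fold change 1.88 ± 0.25, adjusted p = 0.0036), lowest among the TAC hearts in TAC 2. Pamr1, a secreted protein gene in the same list, rose by 1.98 ± 0.50, adjusted p = 0.025, and Fap, a surface protease of such cells, by 0.94 ± 0.23, adjusted p = 0.021. Genes of resting fibroblasts gave 9 of 30 higher and 1 lower. Their summed level was 6219 and 6350 CPM in sham and 6231 to 8396 CPM after TAC, and the part of fibroblast number in the matrix results was not tested. Lhfpl2, a tetraspan membrane gene in none of the lists, rose from 6.01 and 6.24 CPM to 14.4 to 23.4 CPM, median 19.8 (log2 fold change 1.67 ± 0.20, adjusted p = 0.00097), with no overlap. Matrix proteases gave 18 higher and 4 lower without the library labelled TAC 1, activated fibroblast regulators 12 and 0 and resting fibroblast genes 12 and 1.

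The secretory pathway changed in part. Of 33 ER folding genes 7 rose and 1 fell. The 8 with an ER stress element in the promoter window, including Hspa5 and Hsp90b1 whose sequences are printed above, had log2 fold changes of -0.27 to 0.34 (median 0.01), and 0 of them passed. Of the 18 without that element in the window 6 rose, and their median was 0.29. The difference between the 8 and the 18 was not tested. Hspa5, the main ER chaperone, was at 476 and 443 CPM in sham and 341 to 420 CPM, median 380, after TAC (log2 fold change -0.27 ± 0.11, adjusted p = 0.1), with all TAC libraries below sham. Fkbp10, a prolyl isomerase of procollagen, rose from 24.7 and 23.3 CPM to 32.5 to 67 CPM, median 55.4 (log2 fold change 1.08 ± 0.27, adjusted p = 0.026). Pdia5, a disulfide isomerase, rose from 4.39 and 4.97 CPM to 6.83 to 11.2 CPM, median 8.47 (log2 fold change 0.88 ± 0.18, adjusted p = 0.011). The disulfide isomerase gene Txndc5 (0.64 ± 0.15, adjusted p = 0.019) and the prolyl isomerase gene Ppib (0.62 ± 0.16, adjusted p = 0.023) rose too. So did the retrieval receptor genes Kdelr2 (0.65 ± 0.13, adjusted p = 0.011) and Kdelr3 (1.04 ± 0.27, adjusted p = 0.026). The heat shock list had 0 higher and 2 lower of 29, and the integrated stress response list 3 higher and 0 lower of 29. ER folding gave 8 higher and 0 lower without the library labelled TAC 1, heat shock chaperones 0 and 2 and the integrated stress response 5 and 1. For ER folding the count of 7 higher became 4 without wild type TAC 4.

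**Figure D5:**
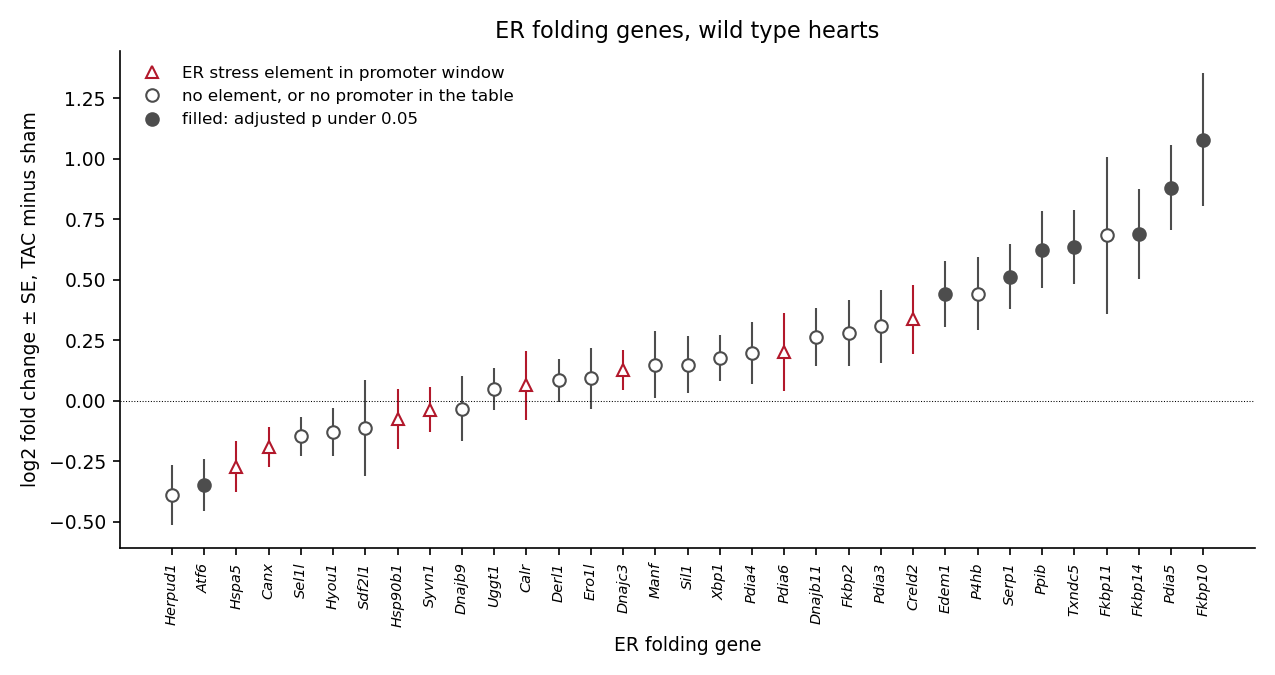
Log2 fold change with its SE (TAC minus sham, wild type) of the 33 ER folding genes, ordered by size; filled points passed an adjusted p of 0.05. Triangles mark the 8 genes with an ER stress element in the promoter window, which lie between -0.27 and 0.34; circles are genes without one or with no promoter in the table.

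Some growth factor genes rose and others fell. Over all genes 6.36% were called higher and 5.8% lower. Of 46 genes of the EGF, FGF, PDGF and neuregulin families 4 rose and 6 fell. Egf, the founding ligand of the EGF receptor, went from 13.9 and 15 CPM to 2.55 to 7.72 CPM, median 5 (log2 fold change -1.53 ± 0.29, adjusted p = 0.01), with all TAC libraries below sham. Ereg, a ligand of the same receptor, went from 0.171 and 0.304 CPM to 0.882 to 5.09 CPM, median 1.83 (log2 fold change 3.48 ± 0.99, adjusted p = 0.039), highest in TAC 6 and TAC 7. The ligand genes Fgf1 (-0.45 ± 0.13, adjusted p = 0.036) and Fgf7 (-0.91 ± 0.25, adjusted p = 0.03) and the intracellular family member Fgf13 (-0.69 ± 0.19, adjusted p = 0.036) fell, while the receptor gene Fgfr1 rose (0.58 ± 0.15, adjusted p = 0.024). Of 52 genes of VEGF, angiopoietin, Notch and guidance signalling 3 rose and 1 fell, both shares below those over all genes. The one that fell was Pgf, a growth factor of vessels, from 15.9 and 17.1 CPM to 9.53 to 12.9 CPM, median 10.6 (log2 fold change -0.59 ± 0.15, adjusted p = 0.023). Vegfa, the main such factor, was at 259 and 279 CPM in sham and 134 to 238 CPM, median 176, after TAC. It did not pass with all libraries (log2 fold change -0.58 ± 0.21, adjusted p = 0.087) and passed without the library labelled TAC 1 (log2 fold change -0.68, adjusted p = 0.034). The EGF, FGF, PDGF and neuregulin list gave 7 higher and 6 lower without the library labelled TAC 1, and the VEGF, angiopoietin and Notch list 6 and 3. The call was lost, in the 12 fits with 1 other library left out, for Ereg in 2 (highest adjusted p = 0.0544, without wild type TAC 4).

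In the TGF-beta and activin list 7 of 33 genes rose and 1 fell. Inhba, the activin A subunit, rose from 1.45 and 2.13 CPM to 2.91 to 4.94 CPM, median 3.38 (log2 fold change 1.03 ± 0.28, adjusted p = 0.027). Fstl1, an activin-binding glycoprotein of fibroblasts, rose from 203 and 181 CPM to 374 to 1061 CPM, median 693 (log2 fold change 1.78 ± 0.40, adjusted p = 0.018). Tgfb2 did not pass with all libraries (log2 fold change 1.47 ± 0.56, adjusted p = 0.1) and passed without the library labelled TAC 1 (log2 fold change 1.65, adjusted p = 0.03), which held 26.9 CPM, within the sham range. In the IGF and imprinted list 8 of 28 rose and 1 fell. Igfbp7, a secreted IGF-binding protein, went from 221 and 214 CPM to 350 to 803 CPM, median 541 (log2 fold change 1.28 ± 0.25, adjusted p = 0.011). H19, an imprinted non-coding RNA gene, went from 7.12 and 4.82 CPM to 8.65 to 12.9 CPM, median 10.2 (log2 fold change 0.82 ± 0.20, adjusted p = 0.021). Mest, an imprinted gene active in growing tissue, went from 18.7 and 16.1 CPM to 25.1 to 48.8 CPM, median 33.7 (log2 fold change 0.97 ± 0.25, adjusted p = 0.028), with the library labelled TAC 1 highest. TGF-beta and activin gave 16 higher and 1 lower without the library labelled TAC 1, and the IGF and imprinted list 9 and 2. For TGF-beta and activin the count of 7 higher became 11 without wild type TAC 2, 4 without wild type TAC 4 or wild type TAC 6. For the IGF and imprinted list the count of 8 higher became 4 without wild type TAC 3 or wild type TAC 4.

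Of 40 genes of the BMP and Wnt pathways 6 rose and 1 fell, with a median of 0.04. Dkk3, a secreted protein of the Dickkopf family, went from 11 and 11.7 CPM to 17.1 to 59.8 CPM, median 40 (log2 fold change 1.74 ± 0.45, adjusted p = 0.03). The Wnt-binding Sfrp1 (0.95 ± 0.25, adjusted p = 0.028) and Frzb (0.96 ± 0.26, adjusted p = 0.03) and the receptor gene Ror2 (0.77 ± 0.21, adjusted p = 0.027) rose, while the ligand gene Wnt5a fell (-0.64 ± 0.19, adjusted p = 0.039). BMP and Wnt genes gave 8 higher and 1 lower without the library labelled TAC 1. For BMP and Wnt genes the count of 6 higher became 3 without wild type TAC 4. Of the 12 fits with 1 other library left out, the call was lost for Sfrp1 in 1 (highest adjusted p = 0.0513, without wild type TAC 4), Frzb in 1 (highest adjusted p = 0.0544, without wild type TAC 4) and Wnt5a in 2 (highest adjusted p = 0.0543, without wild type TAC 4).

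Of 35 core macrophage genes 16 rose and 1 fell. The gene that fell was Csf1, the ligand on which macrophages depend, from 81 and 87.6 CPM to 54.4 to 64.4 CPM, median 57.2 (log2 fold change -0.54 ± 0.09, adjusted p = 0.0053), with every TAC library below sham. Its receptor gene Csf1r rose (log2 fold change 0.64 ± 0.19, adjusted p = 0.042). The lipid receptor gene Trem2 went from 4.31 and 4.87 CPM to 5.53 to 15.3 CPM, median 9.48 (log2 fold change 1.14 ± 0.29, adjusted p = 0.025). For 15 of the 16 genes that rose the library labelled TAC 1 was the TAC library nearest to sham. The lysosomal marker Cd68, for example, was at 10.7 and 11.6 CPM in sham, at 13.4 CPM in that library and at 19.8 CPM or more in the other TAC libraries (log2 fold change 0.85 ± 0.18, adjusted p = 0.013). Cd163, a marker of resident macrophages, was at 11.1 and 11.5 CPM in sham and no higher in the library labelled TAC 1 (10.8 CPM). It rose by 0.63 ± 0.19, adjusted p = 0.041, on the log2 scale over all libraries. Leaving out the library labelled TAC 1 gave 0.73, adjusted p = 0.0037. Core macrophage genes gave 19 higher and 1 lower without the library labelled TAC 1. For core macrophage genes the count of 16 higher became 10 without wild type TAC 3. The call was lost, in the 12 fits with 1 other library left out, for Csf1r in 9 (highest adjusted p = 0.0749, without wild type TAC 4) and Cd163 in 8 (highest adjusted p = 0.0769, without wild type TAC 4).

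Among 35 chemokine genes 2 rose and 0 fell, both shares below the 6.36% higher and 5.8% lower over all genes. Ccl8, a monocyte attractant of resident macrophages, went from 1.24 and 0.66 CPM to 2.42 to 5.61 CPM, median 3.49 (log2 fold change 1.97 ± 0.40, adjusted p = 0.011), and Cxcl16 was the other called gene (log2 fold change 0.57 ± 0.18, adjusted p = 0.046). Ccl2, the main monocyte attractant, was highest in the library labelled TAC 1 (9.29 CPM, against 2.53 to 4.35 CPM in the other TAC and 1.96 and 1.83 CPM in the sham libraries) and did not pass (log2 fold change 1.29 ± 0.46, adjusted p = 0.079). Monocyte genes gave 3 higher and 0 lower of 21, resident macrophage genes 4 and 0 of 22, and dendritic cell and MHC class II genes 4 and 0 of 24. Of cytokine and mediator genes 7 of 44 rose and 1 fell. Tnfrsf12a, the receptor of the cytokine TWEAK, rose from 84.8 and 85.3 CPM to 120 to 211 CPM, median 168 (log2 fold change 0.98 ± 0.20, adjusted p = 0.012), and Lifr, the receptor of leukemia inhibitory factor, fell (log2 fold change -0.41 ± 0.11, adjusted p = 0.024). Chemokines and receptors gave 7 higher and 0 lower without the library labelled TAC 1, monocyte genes 7 and 0, resident macrophage genes 6 and 0, dendritic cell and MHC class II genes 4 and 0 and cytokines and mediators 8 and 1. For cytokines and mediators the count of 7 higher became 4 without knockout sham 1, knockout sham 2 or wild type TAC 4, 3 without knockout TAC 2, wild type TAC 3 or wild type TAC 6. Of the 12 fits with 1 other library left out, the call was lost for Cxcl16 in 7 (highest adjusted p = 0.0808, without wild type TAC 3).

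The counts of other immune and vessel lists stand against 6.36% higher and 5.8% lower over all genes. Of 28 lymphocyte genes 1 fell and 0 rose, and of 40 interferon-response genes 2 rose and 0 fell. Of 15 neutrophil genes 2 rose and 0 fell, and all 15 had log2 fold changes above 0, with a median of 1.58. Their summed level was 23.29 and 23.59 CPM in sham and 80.12 and 113.7 CPM in TAC 6 and TAC 7. In the other TAC libraries it was 25.44 to 40.05 CPM. The neutrophil gene S100a9 was high in TAC 6 and TAC 7 (23.7 and 16.2 CPM, against 3.48 to 8.29 CPM in the other TAC and 4.22 and 3.65 CPM in the sham libraries) and did not pass (log2 fold change 1.39 ± 0.70, adjusted p = 0.2). Of 42 endothelial genes 0 fell and 2 rose, namely the vessel diaphragm gene Plvap (0.77 ± 0.19, adjusted p = 0.02) and the secreted factor gene Cytl1 (0.89 ± 0.23, adjusted p = 0.023). Of 28 pericyte and smooth muscle genes 2 rose and 1 fell. The lists for nerve sheath (19 tested), adipocytes (8), red blood cells (8) and eosinophils or mast cells (8) had 0 called; with the library labelled TAC 1 left out, nerve sheath gave 3 higher and 0 lower and adipocytes 0 higher and 1 lower. In the complement, clotting and serpin list 9 of 34 rose and 1 fell. C4b, of the classical complement pathway, rose (log2 fold change 0.76 ± 0.17, adjusted p = 0.015), and C7, of the terminal complex, fell from 61 and 58.8 CPM to 26.9 to 49.5 CPM, median 39.6 (log2 fold change -0.60 ± 0.16, adjusted p = 0.025). Lymphocyte genes gave 0 higher and 1 lower without the library labelled TAC 1, interferon response 2 and 0, neutrophil genes 2 and 0, endothelial genes 2 and 1, pericyte and smooth muscle genes 3 and 3 and complement, clotting and serpins 11 and 1. For complement, clotting and serpins the count of 9 higher became 4 without knockout sham 1, knockout sham 2 or knockout TAC 2, 5 without knockout TAC 5, 3 without wild type TAC 3 or wild type TAC 4.

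Among fast-response programmes, 5 of 32 immediate early genes rose and 0 fell. Egr2, a zinc finger factor gene, went from 0.938 and 0.812 CPM to 2.53 to 3.57 CPM, median 2.96 (log2 fold change 1.78 ± 0.40, adjusted p = 0.015), and its relative Egr3 from 3.07 and 3.15 CPM to 5.78 to 10.3 CPM, median 7.49 (log2 fold change 1.30 ± 0.31, adjusted p = 0.019), both with no overlap. Fos did not pass (log2 fold change 0.62 ± 0.50, adjusted p = 0.42). The stress factor gene Atf3 rose from 3.37 and 3.15 CPM to 7.04 to 15.6 CPM, median 9.2 (log2 fold change 1.58 ± 0.41, adjusted p = 0.028), highest in TAC 7. Of 23 clock genes 3 fell and 0 rose. The clock gene Per2 was lower in the library labelled TAC 1 and in TAC 7 (11.8 and 13.4 CPM) than in the other TAC (22.3 to 36.9 CPM) or the sham libraries (36 and 38.3 CPM) and did not pass (log2 fold change -0.62 ± 0.39, adjusted p = 0.3); the hour of tissue collection is not given. Of 20 glucocorticoid-response genes 4 fell and 0 rose. Hsd11b1, whose product regenerates the active hormone, went from 16.6 and 15.4 CPM to 7.28 to 11.3 CPM, median 9.88 (log2 fold change -0.76 ± 0.16, adjusted p = 0.015). Fkbp5, a gene induced by glucocorticoids, was highest in TAC 6 and TAC 7 (124 and 219 CPM, against 30.5 to 65.6 CPM in the other TAC and 31.7 and 24.9 CPM in the sham libraries) and did not pass (log2 fold change 1.63 ± 0.78, adjusted p = 0.19). Immediate early genes gave 5 higher and 1 lower without the library labelled TAC 1, clock genes 2 and 3 and glucocorticoid response 0 and 4.

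Of 43 cytosolic ribosomal protein genes 32 had all TAC libraries above sham, against 16.3% of all genes. Their median was 0.30, and 2 rose and 0 fell by the test. The elongation factor gene Eef1a1 rose from 864 and 872 CPM to 1092 to 2043 CPM, median 1402 (log2 fold change 0.75 ± 0.19, adjusted p = 0.021). Of 36 redox genes 6 rose and 4 fell. The glutathione peroxidase genes Gpx1 (0.81 ± 0.20, adjusted p = 0.023) and Gpx7 (0.96 ± 0.22, adjusted p = 0.016) rose, and Txnip, an inhibitor of thioredoxin and of glucose uptake, fell from 809 and 815 CPM to 359 to 719 CPM, median 486 (log2 fold change -0.71 ± 0.19, adjusted p = 0.029). Cytosolic ribosomal proteins gave 4 higher and 0 lower without the library labelled TAC 1, and redox genes 8 and 6.

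Some of the largest changes lay outside the lists. Cngb3, a subunit gene of the cone photoreceptor channel, fell from 5.46 and 3.96 CPM to 0.554 to 2.17 CPM, median 0.688 (log2 fold change -2.24 ± 0.43, adjusted p = 0.01). Lgi1, whose secreted product is best known from synapses, fell from 14.1 and 9.79 CPM to 1.14 to 5.14 CPM, median 3.15 (log2 fold change -1.93 ± 0.35, adjusted p = 0.0086). Ky, a gene needed for muscle maintenance, was at 22.1 and 20.3 CPM in sham and ranged from 11.2 CPM in the library labelled TAC 1 to 1.62 CPM in TAC 7 (log2 fold change -1.73 ± 0.42, adjusted p = 0.025). Every TAC library lay below sham for these 3 genes. Nt5c1a, a cytosolic nucleotidase that makes adenosine from AMP, went from 5.03 and 4.21 CPM to 0.3 to 2.09 CPM, median 1.39 (log2 fold change -1.83 ± 0.44, adjusted p = 0.02). The sulfotransferase gene Gal3st3 went from 16.5 and 16 CPM to 3.45 to 7.96 CPM, median 5.89 (log2 fold change -1.49 ± 0.22, adjusted p = 0.0049). Among increases, Dlgap5 (3.45 ± 0.71, adjusted p = 0.012), Cep55 (3.08 ± 0.55, adjusted p = 0.0077) and Cenpi (3.03 ± 0.64, adjusted p = 0.013) are further genes of mitosis. Dlgap5 in sham 1 and Cenpi in sham 2 lay below the level of 3 counts (0.127 and 0.151 CPM). The sizes of these changes thus rest on few reads. Itih2, whose product binds hyaluronan, went from 0.171 and 0.355 CPM to 0.715 to 2.79 CPM, median 1.73 (log2 fold change 2.72 ± 0.55, adjusted p = 0.011). The groups did not overlap for Itih2. Padi4 and Scn10a are list members, of the neutrophil list and of the sodium and related channel list, and are counted there. Padi4, an arginine deiminase best known from granulocytes, went from 0.426 and 0.102 CPM to 1 to 4.32 CPM, median 1.75 (log2 fold change 2.91 ± 0.70, adjusted p = 0.019). Its level in sham 2 was also below that of 3 counts. Scn10a, a sodium channel best known from sensory neurons, fell from 2.3 and 2.64 CPM to 0.317 to 1.29 CPM, median 0.859 (log2 fold change -1.55 ± 0.41, adjusted p = 0.026). The dipeptidase gene Pm20d2 fell from 12 and 11.1 CPM to 2.13 to 5.24 CPM, median 4.41 (log2 fold change -1.50 ± 0.35, adjusted p = 0.019), and the groups did not overlap for either of these decreases.

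Of 23 load-induced genes 9 rose and 0 fell. Nppb, the natriuretic peptide gene of the ventricle, went from 397 and 397 CPM to 558 to 1318 CPM, median 863 (log2 fold change 1.15 ± 0.26, adjusted p = 0.017), and Acta1, the skeletal actin gene, from 6276 and 7100 CPM to 9288 to 19600 CPM, median 15000 (log2 fold change 1.13 ± 0.24, adjusted p = 0.014). Both were raised in all TAC hearts. Nppa, the other natriuretic peptide gene, was at 606 CPM in the library labelled TAC 1, within the sham range (705 and 541 CPM), and at 1591 to 5881 CPM in the other TAC libraries. Over all libraries it did not pass (log2 fold change 2.22 ± 0.70, adjusted p = 0.062), but once the library labelled TAC 1 was left out it did (log2 fold change 2.43, adjusted p = 0.01). Load-induced genes gave 12 higher and 0 lower without the library labelled TAC 1.

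The effect of TAC was compared with that in the knockout hearts by the genotype by surgery interaction. It asks whether the change differs between hearts labelled wild type and knockout, with the library labelled TAC 1 counted as wild type. In the knockout hearts 4.08% of the genes tested were called. The edgeR test called 0 genes, with 647 at an unadjusted p under 0.05. DESeq2 called 7, and edgeR without the library labelled TAC 1 called 3. Tbx5 changed by -1.02 in wild type and -0.53 in knockout hearts, a difference of -0.50 (SE 0.18, adjusted p = 1). For Hipk2 the changes were -1.45 and -0.72, a difference of -0.72 (SE 0.30, adjusted p = 1). For Cdk1 they were 2.36 and 2.66, a difference of -0.30 (SE 0.54, adjusted p = 1). For Csf1 they were -0.54 and -0.27, a difference of -0.28 (SE 0.13, adjusted p = 1). In the main edgeR fit, with all libraries kept, no gene was shown to differ between the genotypes. That does not show that the effects were alike.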

How the data were processed

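RNA of mouse ventricles was sequenced, and the authors deposited raw counts of reads per gene for 14 libraries in 1 table. Per the submitters' processing notes the tools were FastQC, HISAT2 2.1.0, featureCounts and edgeR with the GRCm38 build; whether counting used strand is not given in the sources used here, so reads of a gene and an antisense or overlapping partner may not be separable. Total counts in the 8 wild type libraries were 19902287 to 33123052, and intervals cover counting error only.

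Genes were kept with edgeR's filterByExpr (15876 of the table), scaled by TMM and tested with the robust quasi-likelihood test of edgeR 4.0.16 (R 4.3.3) on 4 group means of all 14 libraries, with Benjamini-Hochberg adjustment over all genes. SEs of log2 fold changes were derived from the F statistics. On simulated counts with 200 changed genes among 15602, the test of TAC against sham recovered 38% at 1.5-fold and 63% at 2-fold, and 5.61% of its 107 calls were false. The simulated libraries were independent, with the same spread per gene in all groups. In the data the TAC libraries differed more from each other than the sham libraries did, so these rates need not hold there. DESeq2 1.42.0 and limma 3.58.1 (voom) were alternatives, besides RLE scaling, other filters, wild type libraries alone, a replicate block and each library left out.

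The members and the 76 gene lists were chosen with earlier results of these data known. Genes were named by a rule: the largest changes, widest gaps and highest levels among called genes and, per list, called members with the smallest p. The rule names 389 genes, of which 157 are given, picked by role with their values known. Of 182 genes named with values 25 fall outside it and were chosen after their values were seen. Replicate numbers are shared by sham and TAC, and the main fit took no pairing into account. The correlations of deviations between libraries of the same number were -0.055 and 0.024. With 2 sham libraries, whose deviations mirror each other, these cannot decide whether the numbers pair the libraries. Promoters were matched by gene symbol to RefSeq (GRCm38.p6), which held one for 11345 of the tested genes.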

Additional observations from a re-analysis of the deposited data

Results flagged for a closer look

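Of 243 genes and list medians described, 17 had 1 of the 6 TAC libraries far from the others by Dixon's test at its 95% critical value; chance flags about 1 in 20. TAC 7 was that library in 10 cases, the library labelled TAC 1 in 3, TAC 6 in 2, and TAC 3 and TAC 4 in 1 each.

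TAC 7 was highest for Atf3 (15.6 CPM, others 7.04 to 9.83), Gpx1 (194 CPM, others 98.2 to 132), Plvap (31.3 CPM, others 18.3 to 22.7), Ppib (168 CPM, others 101 to 121) and Tuba1a (186 CPM, others 102 to 133). It was lowest for Ccnd1 (89.8 CPM, others 120 to 138), Esrrg (13.8 CPM, others 17 to 18.6), Nid2 (37 CPM, others 50.5 to 57) and Tk1 (1.86 CPM, others 5.03 to 6.91). For the cell cycle genes Ccnd1 and Tk1 and for Nid2 this placed TAC 7 nearest to sham, and for the other 6 farthest from it. The VEGF, angiopoietin and Notch list median was -0.30 in TAC 7 and -0.07 to 0.06 in the others.

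The library labelled TAC 1 was highest for Ccl2 (9.29 CPM, others 2.53 to 4.35) and lowest for Cd68 (13.4 CPM, others 19.8 to 22.4). Its BMP and Wnt list median lay at -0.12 from the sham mean on the log2 scale, with the others at 0.09 to 0.21. TAC 6 was highest for Csf1 (64.4 CPM, others 54.4 to 57.4) and Dlgap5 (3.02 CPM, others 1.1 to 1.57), and TAC 3 for Ror2 (7 CPM, others 4.48 to 5.33). The intercalated disc list median was 0.01 in TAC 4 and -0.06 to -0.04 in the others.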

How the results depend on the processing

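With 1 library left out, the number of genes called ranged from 0 to 2756 (0 to 1469 higher, 0 to 1308 lower), the lowest without either sham library, and the interaction calls from 0 to 3. The difference in mitochondrial share ranged from -5.39 to -4.00 percentage points. Wild type libraries alone gave 736 calls (341 higher, 395 lower). A replicate block gave 22 (11 higher, 11 lower), and 160 of the named genes lost their call. Whether the numbers pair the libraries could not be decided from 2 sham libraries (correlations of deviations -0.055 and 0.024). The interaction calls were 3 with no filter on low counts and 7 with DESeq2. The cause was not tested. Among the 182 named genes no sign changed under any alternative. RLE scaling kept all of their calls, voom lost 20 and gained 1, no filter lost 22 and DESeq2 gained 5. Without sham 1 or without sham 2, 171 calls were lost each time. With 2 sham libraries the spread of the sham state is known poorly, and genes under about 1 CPM rest on few reads.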
